A study of Mus musculus with 5 samples.

Results

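NLRP genes encode proteins with a pyrin domain, a nucleotide-binding NACHT domain and leucine-rich repeats. In immune cells some of them sense danger and assemble inflammasomes. In mammals another branch of the family is transcribed in the growing oocyte, and in the mouse this branch has multiplied into clusters of close relatives. NLRP5 (also called MATER), NLRP2 and NLRP4F belong to the subcortical maternal complex, a protein assembly under the egg membrane that early cleavage needs. The genes described here are the oocyte NLRP genes outside that complex: Nlrp4a, Nlrp4b, Nlrp4c, Nlrp4e, Nlrp9a, Nlrp9b, Nlrp9c and Nlrp14. They were taken by gene symbol, and all 8 were found among the 32285 symbols of the deposited table. All 8 also passed the filter on low values (2 or more libraries at 1 or higher).

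RNA came from mouse 2-cell embryos, a stage when maternal RNA is being cleared and the embryo's own genome becomes active. Oocytes of superovulated females of 6 to 9 weeks were fertilised in vitro for about 6 h with sperm of males of 12 to 16 weeks, and zygotes with 2 pronuclei then spent 24 h in KSOM medium holding either 25 nM PNMC or an equal volume of DMSO. PNMC gave 3 libraries and the control 2, and below the values "with DMSO" are those of control libraries 1 and 2 and the values "with PNMC" those of PNMC libraries 1, 2 and 3, in that order. The labels spell out neither PNMC nor the strain, and they do not say how many embryos each library held or whether the libraries came from separate cultures, so the p-values here speak of the variation among these 5 libraries alone, and that variation may be technical. The values are a normalised signal of unstated unit, and the depth behind them is unknown. In RNA of whole embryos, fewer embryos or cells of a kind and less RNA per cell cannot be told apart.

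The 8 oocyte markers were found in every library, at unlike levels. They summed to between 4821 and 5270, most of it Dppa3 (mean 3220), followed by Bmp15 and Oosp1. Mos, named for its low level and outside the rule for named genes, had a mean of 4.62. The 5 markers of the 2-cell stage, led by Zfp352, Zscan4d and Tcstv1, summed to between 692 and 815. The 12 cumulus and granulosa markers summed to 3.60 and 8.24 with DMSO and to between 2.46 and 3.23 with PNMC, and 4 of them (Ptx3, Amh, Foxl2 and Inhba) were listed at 0 throughout. The controls thus lay above the PNMC libraries in this sum, at a level far under that of most NLRP genes described here, and its part in the results was not tested. The 6 sperm markers summed to between 4.22 and 6.89, most of it Prm2, and the 8 blood and immune markers to between 9.18 and 12.4. Control library 2 listed 18595 genes above 0, against 17408 to 17635 in the other libraries.

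The members are near relatives, and how alike their sequences are bears on how well reads can be assigned to each. Of the 8 genes, all lie on chromosome 7, and Nlrp9c, Nlrp4a and Nlrp9a are direct neighbours among the protein-coding genes of RefSeq, while Nlrp4e stands next to Nlrp5 of the maternal complex. In the longest GENCODE transcripts, Nlrp4c and Nlrp4e were 93.4% identical over 3343 aligned bases, and Nlrp9a and Nlrp9c 88.2% identical over 3208. Nlrp4a was 85.7% identical to Nlrp4e and 85.5% to Nlrp4c. Nlrp9b was 84.5% identical to Nlrp9a and 83.7% to Nlrp9c. Nlrp4b stood further from its own subfamily, with 79.4% identity to Nlrp4e at most. Nlrp14 was between 61.3% and 64.9% identical to the others over the parts that could be aligned.

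Upstream sequences were also alike within some pairs of these genes, but not within all. RefSeq promoter windows of 300 bases (250 before and 50 after an annotated start, build GRCm38.p6) were matched for 7 of the 8 genes, all but Nlrp14. The windows of Nlrp4c and Nlrp4e, the closest pair by transcript, aligned over only 43 columns. That of Nlrp9b aligned with Nlrp9a over 9 columns and with Nlrp9c over 13. Nlrp9a and Nlrp9c are shown first because they are the closest pair of different genes. A stretch of 227 aligned columns was 95.2% identical, running from base 74 to base 300 of the Nlrp9a window and from base 35 to base 256 of the Nlrp9c window. Capitals mark the bases within that stretch that differ between them, gaps included, which came to 11 columns. Nlrp9a lies at chr7:26534773-26535072 on the + strand and Nlrp9c at chr7:26403651-26403950 on the - strand, each printed 5′ to 3′.
Nlrp9a: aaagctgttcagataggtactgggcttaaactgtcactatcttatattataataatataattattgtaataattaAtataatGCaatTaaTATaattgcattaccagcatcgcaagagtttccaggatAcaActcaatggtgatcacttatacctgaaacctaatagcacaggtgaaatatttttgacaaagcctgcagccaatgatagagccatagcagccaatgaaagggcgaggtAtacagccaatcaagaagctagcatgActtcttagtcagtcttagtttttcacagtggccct
Nlrp9c: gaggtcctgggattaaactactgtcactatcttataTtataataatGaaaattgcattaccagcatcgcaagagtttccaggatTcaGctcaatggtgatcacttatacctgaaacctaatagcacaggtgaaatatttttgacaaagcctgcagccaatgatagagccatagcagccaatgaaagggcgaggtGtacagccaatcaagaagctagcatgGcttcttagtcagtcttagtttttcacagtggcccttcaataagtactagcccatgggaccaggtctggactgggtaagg

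Nlrp4a and Nlrp4c are shown next as the more distant case, with 74.5% identity over 282 aligned columns. Here capitals mark the stretches of at least 12 bases that are identical in both. Nlrp4a has 2 starts in that table, and the window of the second, at chr7:26435364-26435663 on the + strand, is printed beside that of Nlrp4c at chr7:6044911-6045210 on the + strand.
Nlrp4a: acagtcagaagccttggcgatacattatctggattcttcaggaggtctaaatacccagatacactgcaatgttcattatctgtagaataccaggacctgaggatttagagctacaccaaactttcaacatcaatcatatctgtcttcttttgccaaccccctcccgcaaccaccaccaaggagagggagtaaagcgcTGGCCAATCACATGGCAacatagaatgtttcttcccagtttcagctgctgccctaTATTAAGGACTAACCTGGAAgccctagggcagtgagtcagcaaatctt
Nlrp4c: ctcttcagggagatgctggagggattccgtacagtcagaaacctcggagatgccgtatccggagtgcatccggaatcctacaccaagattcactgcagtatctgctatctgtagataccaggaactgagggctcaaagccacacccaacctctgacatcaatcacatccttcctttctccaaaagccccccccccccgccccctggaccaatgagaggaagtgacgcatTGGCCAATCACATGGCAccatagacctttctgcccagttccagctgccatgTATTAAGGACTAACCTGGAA

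The 2 identical stretches, of 17 and 20 bases, occurred in no other of the 32851 promoter windows on either strand. The first of them holds the letters CCAAT directly followed by CACATG, a match to the E-box pattern CANNTG. Searched on both strands and each on its own, so that matches may overlap, CANNTG was found in all 9 windows of the 7 genes and in 72.3% of all windows. CCAAT was found in 7 of the 9 windows, with at least 1 for each of the 7 genes but Nlrp9b, against 37.4% of all windows. The 9 windows are not separate sequences. The 2 of Nlrp4b are identical over 272 aligned columns, and those of Nlrp9a and Nlrp9c share the stretch printed above. TAATTG, the core of the element bound by the oocyte homeobox factor NOBOX, was found in Nlrp9a and Nlrp9b and in 2628 of all 32851 windows. TATAAA was found in Nlrp9b, against 13.6% of all windows. These matches describe letters in the windows and were not tied to any measurement of binding.

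Reads taken from shared stretches could be counted for the wrong copy. Of all distinct 50-base windows in its transcripts, Nlrp4e shared 36.7% with another annotated gene. Most of these were shared with predicted genes that the named-gene rule does not cover, such as Gm16443 (30.8% of the Nlrp4e windows) and Gm8486 (30.3%). Neither symbol is listed in the deposited values, so no level can be given for them. With Nlrp4c, Nlrp4e shared 8.24% of its windows. Nlrp4c shared 10.7%, Nlrp9b 7.79%, Nlrp9a 6.07%, Nlrp9c 2.61% and Nlrp4a 2.56%, while Nlrp4b and Nlrp14 shared none. With windows of 100 bases the share fell to 11.5% for Nlrp4e and was at most 2.11% in the other 7. By share of windows, Nlrp4e is thus the most open to this doubt, and Nlrp4c, Nlrp4a and the Nlrp9 genes are less so. The share leaves out how abundant the other gene is. Nlrp4c (mean 9.63) shared 6.97% of its windows with Nlrp4e (mean 145), so reads counted for the wrong copy could weigh heavily on its low value. How many were so counted was not tested, and how reads from shared stretches were handled is not stated. Nlrp4b and Nlrp14 are free of this doubt for reads of 50 bases or more, as far as these annotated transcripts go.

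**Figure D1:**
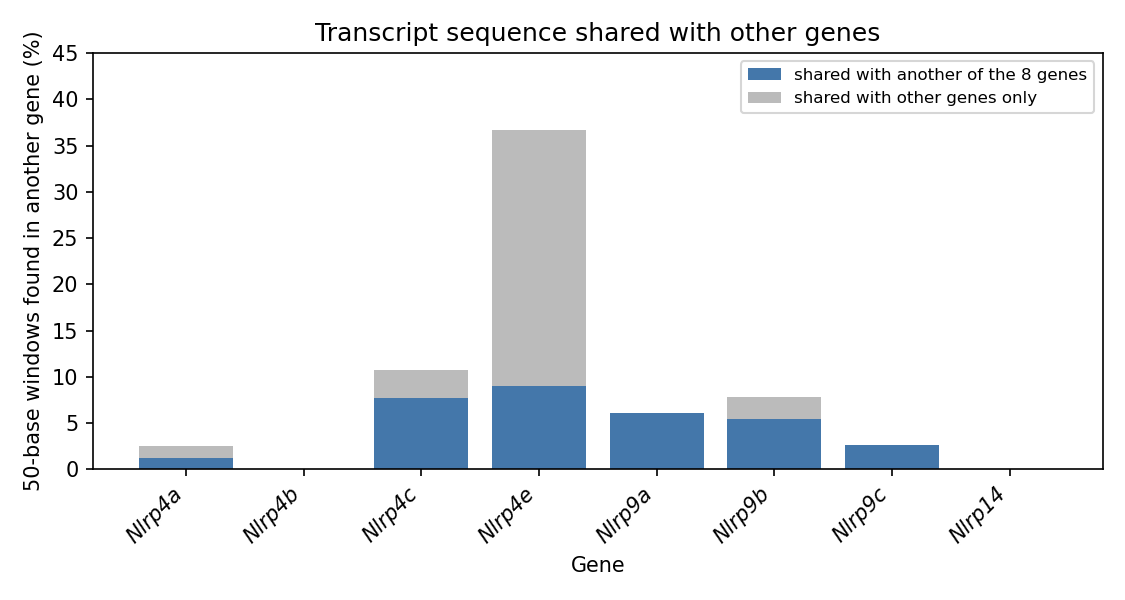
Share of the distinct 50-base windows of each gene's GENCODE M21 transcripts (percent, vertical axis) that also occur in a transcript of another gene, for the 8 genes on the horizontal axis. Blue is the part shared with another of the 8 and grey the part shared with other genes only. Nlrp4e stands out at 36.7%, and Nlrp4b and Nlrp14 have no bar because they shared no window.

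Transcripts of all 8 genes were present in every library, but at levels that spanned 2 orders of magnitude. Nlrp9c was the most abundant, at 655 and 625 with DMSO and at 703, 685 and 681 with PNMC. Its mean ranked 70 in the whole table. Nlrp4c was the least abundant, at 9.76 and 10.0 with DMSO and at 10.1, 5.93 and 12.3 with PNMC. Within a library Nlrp9c exceeded Nlrp4c by 55.3 to 115 times.

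The order of mean levels over the 5 libraries was Nlrp9c (669.8), Nlrp14 (225), Nlrp9a (192), Nlrp4e (145), Nlrp4a (130.0), Nlrp9b (104), Nlrp4b (21.0) and Nlrp4c (9.63). Some neighbours in this order were not separated by the spread over libraries. The ranges of Nlrp14 and Nlrp9a overlapped, as did those of Nlrp4e and Nlrp4a and those of Nlrp4a and Nlrp9b, although Nlrp4a was above Nlrp9b within each of the 5 libraries. The ranges did not overlap between Nlrp9c and Nlrp14, between Nlrp9a and Nlrp4e, or between Nlrp4b and Nlrp4c. Whether the deposited signal was already divided by transcript length is not stated, but the longest transcripts differed little, from 3216 bases in Nlrp9c to 4259 in Nlrp4a. Divided by that length, the order changed in 1 place: Nlrp9b (31.2 per kilobase) passed Nlrp4a (30.5).

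**Figure D2:**
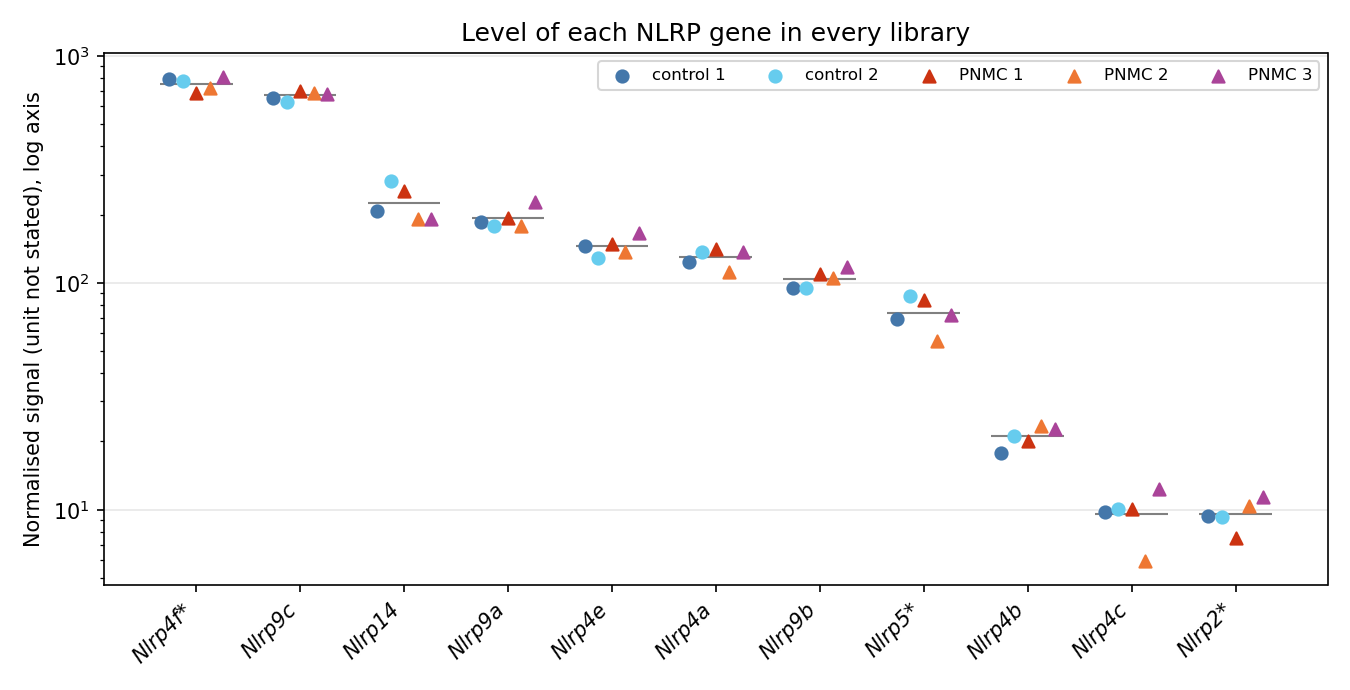
Normalised signal (log axis) of the 8 genes and, marked with an asterisk, the 3 NLRP genes of the maternal complex, ordered by mean level. Circles are the 2 control libraries, triangles the 3 PNMC libraries, and the grey line is the mean of the 5. Nlrp9c and Nlrp4f lie far above the rest, and Nlrp4c and Nlrp2 lie lowest.

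Closeness in sequence and closeness in level did not always go together. Nlrp9c exceeded Nlrp9a, with which it shares most of its promoter window, by a factor of 3.54 and 3.52 with DMSO and of 3.63, 3.87 and 2.99 with PNMC. Nlrp9c exceeded Nlrp9b by 5.80 to 6.88 times, and Nlrp9a exceeded Nlrp9b by 1.69 to 1.94 times. In the other subfamily, Nlrp4e exceeded Nlrp4c, its nearest relative by transcript, by 12.8 to 23.1 times, and Nlrp4a exceeded Nlrp4c by 11.1 to 18.8 times. Nlrp4a and Nlrp4e, in contrast, were close in level as well, with a ratio of means of 1.12 and overlapping ranges. Both ratios to Nlrp4c were highest in PNMC library 2, where Nlrp4c was lowest. Both ratios carry the doubt about shared windows given above through Nlrp4c, and the ratio of Nlrp4e to Nlrp4c carries it through Nlrp4e as well.

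Taken as a family, the 8 genes made a small and similar part of the RNA in every library. Their summed signal was 1440 and 1475 in the controls and 1579, 1437 and 1555 with PNMC, which is between 0.317% and 0.354% of all signal. PNMC library 2 lay below both controls and the other PNMC libraries above them, so the groups overlapped. Nlrp9c supplied between 42.4% and 47.7% of the sum, Nlrp14 between 12.3% and 19.1%, Nlrp9a between 12.0% and 14.7%, and Nlrp4c at most 0.793%. By comparison, the maternal complex NLRP genes summed to 868 and 867 with DMSO and to 777, 784 and 889 with PNMC, most of it Nlrp4f.

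The single comparison asked whether PNMC changed these transcripts. None of the 8 passed limma's test at an adjusted p under 0.05 (lowest adjusted p = 0.993), and 0 had an unadjusted p under 0.05. Across all 12734 genes tested, 0% passed the adjusted threshold and 4.99% the unadjusted one. The fitted change was positive in 5 of the 8 and negative in 3, and the median of the 8 changes was 0.12 on the log2 scale. That median was 0.05 without PNMC library 3, 0.07 without control library 2 and 0.21 with median scaling, and the number of positive changes was 7 without control library 2 or without PNMC library 2. The same median was -0.05 for the 12734 genes and 0.02 for the 750 genes with a mean of at least 100. The PNMC values lay wholly above both controls in 2 of the 8 and wholly below in 0, where 19.9% of all genes tested were separated in either direction and 7.97% with PNMC higher. Among the 750 abundant genes the share with PNMC higher was 12.4%.

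The 2 separated genes were both of the Nlrp9 subfamily. Nlrp9b, which in the intestinal epithelium is known as a sensor of viral RNA acting with the helicase DHX9, stood at 95.2 and 94.5 with DMSO and at 109, 105 and 117 with PNMC. Limma put the difference at 0.22 on the log2 scale (SE 0.14, adjusted p = 0.993), with a 95% interval from -0.09 to 0.52. The lowest PNMC value exceeded the higher control, and the controls nearly coincided. Nlrp9c, whose 5 values were given above, had the higher values in all 3 PNMC libraries too, at a log2 difference of 0.11 (SE 0.10; limma, adjusted p = 0.993) and an interval from -0.10 to 0.32. Nlrp9a did not share the separation: it stood at 185 and 178 with DMSO and at 194, 177 and 228 with PNMC, where PNMC library 2 fell just under the lower control. The control mean was 181 ± 5.38 (SD, n = 2) and the PNMC mean 199.6 ± 25.8 (SD, n = 3), with a fitted log2 change of 0.13. The limma intervals of all 3 Nlrp9 genes include 0.

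Nlrp14, an oocyte and testis NLRP whose maternal product mouse embryos need to pass early cleavage, varied most among the abundant members. It stood at 207 in control library 1 and 282 in control library 2, and at 253, 191 and 191 with PNMC. Control library 2 was the highest and PNMC libraries 2 and 3 the lowest, but control library 1 lay between PNMC library 1 and the other PNMC libraries, so the groups overlapped. The means were 244 ± 53.0 (SD, n = 2) and 212 ± 35.6 (SD, n = 3). Limma's estimate was -0.20 on the log2 scale (SE 0.16, limma adjusted p = 0.993). Without control library 2, which also listed the most genes above 0, the log2 change was 0.02. Without control library 1 it was -0.42, at an unadjusted limma p of 0.0379 (adjusted p = 0.978). It was -0.34 when PNMC library 1 was left out. The size and the sign of the Nlrp14 difference thus depended on which library was left out. The part of control library 2's gene number in the result was not tested. Over the 5 libraries the SD of log2 values was 0.25 for Nlrp14, larger than in 90.5% of the 750 abundant genes, while for Nlrp9c it was 0.07, larger than in 7.73% of them. Uhrf1, whose product is reported to bind NLRP14, ran at 162 and 197 with DMSO and at 186, 178 and 177 after PNMC.

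The Nlrp4 genes showed no common direction. Nlrp4e, whose loss in mouse embryos is reported to stop early cleavage, stood at 145 and 129 with DMSO and at 148, 137 and 166 with PNMC, a log2 change of 0.13. PNMC library 2 lay between the controls. Nlrp4a stood at 124 and 137 with DMSO and at 141, 112 and 137 with PNMC, with means of 130.2 ± 9.14 (SD, n = 2) and 129.9 ± 16.1 (SD, n = 3) and a log2 change of -0.01. Its groups overlapped fully, with PNMC libraries at both ends. Nlrp4b stood at 17.8 and 21.2 with DMSO and at 20.02, 23.5 and 22.8 with PNMC, a log2 change of 0.17. Control library 1 was its lowest value, and PNMC library 1 lay between the controls. Nlrp4c, whose 5 values were given above, had a log2 change of -0.11 (SE 0.30). Its controls differed by less than the PNMC libraries, which held both its highest and its lowest value, and without PNMC library 2 the log2 change was 0.16.

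**Figure D3:**
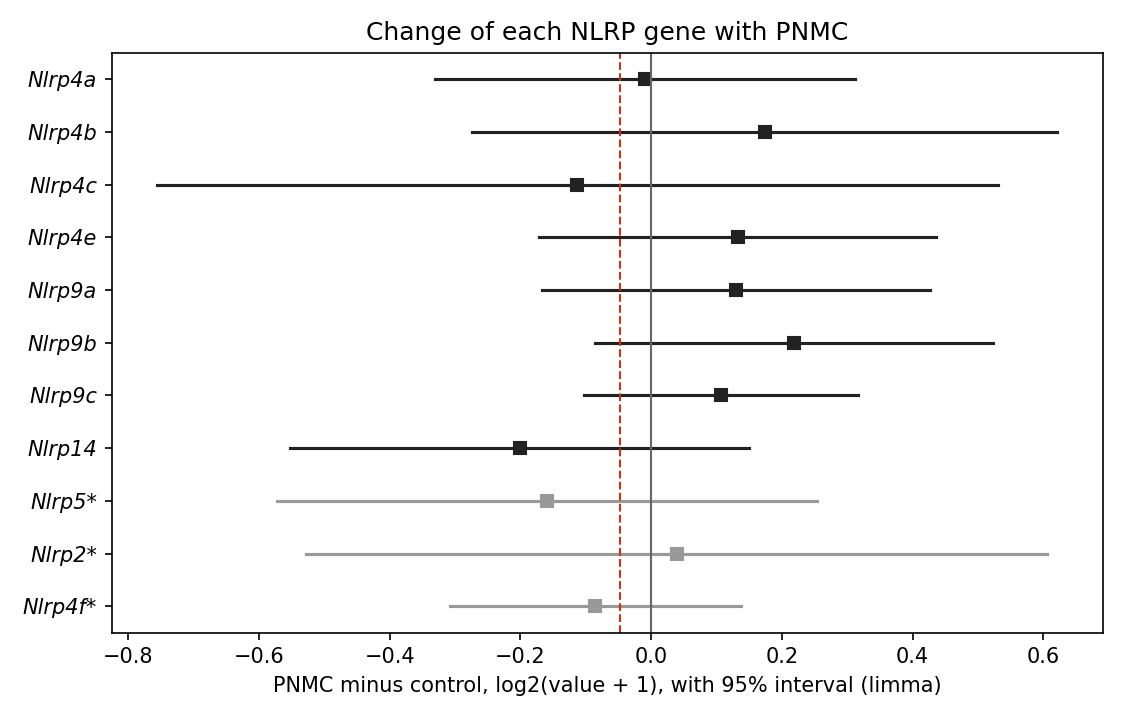
Fitted change with PNMC on the log2(value + 1) scale (horizontal axis), with limma's 95% interval, for the 8 genes (black) and the maternal complex NLRP genes (grey, asterisk). The solid line is 0 and the dashed line is the median of all genes tested, -0.05. Every interval includes 0, and Nlrp9c has the narrowest and Nlrp4c the widest among the 8.

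The intervals show what size of change these libraries leave possible. All 8 lay within 1 log2 unit of 0 in both directions. For Nlrp9c the interval ran from -6.83% to 24.6% relative to the control level, for Nlrp9a from -10.9% to 34.4%, for Nlrp4e from -11.2% to 35.3%, for Nlrp9b from -5.81% to 43.7%, for Nlrp4a from -20.5% to 24.2%, and for Nlrp14 from -31.8% to 10.95%. The low genes were bounded more loosely, Nlrp4b from -17.3% to 53.9% and Nlrp4c from -40.8% to 44.5%. The percentages come from log2(value + 1), which for a low gene such as Nlrp4c draws them towards 0. They also rest on means of log values and so differ from the change between mean signals. For Nlrp4c those means were 9.90 with DMSO and 9.45 with PNMC.

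Library-to-library deviations differed between the members, and this held within as well as between the groups. Nlrp4e, Nlrp9a and Nlrp9b had the most similar profiles, all with their highest value in PNMC library 3. The root mean square distance between centred log2 profiles over the 5 libraries was 0.05 for Nlrp4e and Nlrp9a and 0.08 for Nlrp9a and Nlrp9b. Nlrp14 ran differently, 0.30 from Nlrp9a and 0.31 from Nlrp4e, and its nearest member was Nlrp4a at 0.18. The most distant pair was Nlrp4b and Nlrp4c at 0.38. These distances describe 5 libraries that share their normalisation, and no test was made of them.

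Of the 3537 other genes with a mean of at least 20, the closest to Nlrp14 in profile were Cby1 (distance 0.03), Klhl9 (0.04) and Klhdc1 (0.04), where the median distance was 0.28. Cby1 stood at 32.8 and 45.6 with DMSO and at 38.5, 29.4 and 28.9 with PNMC, with the same high control library 2 and PNMC library 1. The closest to the mean profile of the 8 members were Khdc1b (0.01), Nsun4 (0.02) and Ciapin1 (0.02), where the median was 0.18. Khdc1b, of a KH-domain family transcribed in oocytes, stood at 806 and 837 with DMSO and at 889, 771 and 929 with PNMC. These were the nearest of many candidates over few libraries, and the likeness was not tested.

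**Figure D4:**
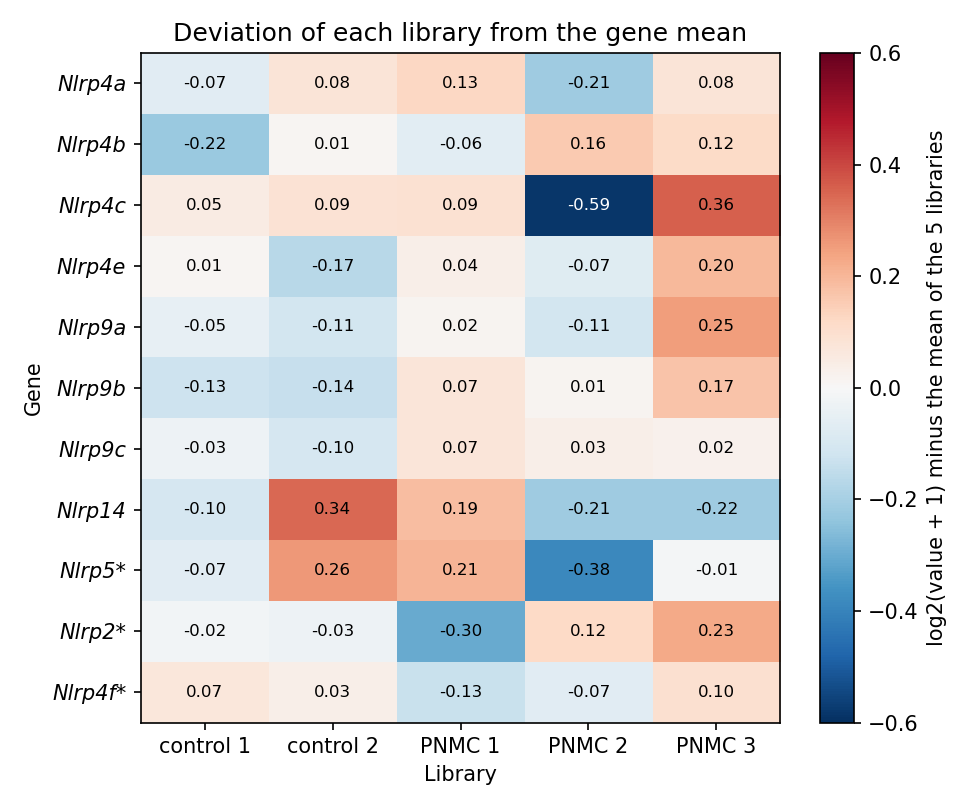
Deviation of each library (columns) from the gene's mean over the 5 libraries, in log2(value + 1), for the 8 genes and the maternal complex NLRP genes with an asterisk (rows). Red is above and blue below the mean. Nlrp14 and Nlrp5 are both highest in control library 2, Nlrp4c is lowest in PNMC library 2 at -0.59, and the Nlrp9 genes have negative values in both controls. Nlrp9a is nevertheless lowest in PNMC library 2, at -0.11.

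Of the 3 NLRP genes inside the maternal complex, 0 passed limma's test, adjusted or unadjusted. Nlrp4f, the family's most abundant transcript, stood at 789 and 771 with DMSO and at 686, 719 and 805 with PNMC, a log2 difference of -0.09 (SE 0.10; limma, adjusted p = 0.993). Its range overlapped that of Nlrp9c, and it exceeded Nlrp9c in 4 of the 5 libraries. Nlrp5 stood at 69.3 and 87.0 with DMSO and at 83.9, 55.4 and 72.0 with PNMC, and Nlrp2 at 9.40 and 9.31 with DMSO and at 7.55, 10.4 and 11.3 with PNMC. Nlrp14 exceeded Nlrp5 by 2.66 to 3.46 times within a library, and both were highest in control library 2. Of the 5 non-NLRP partners in the complex, none passed and 0 had an unadjusted p under 0.05, and Zbed3, Padi6 and Tle6 were the most abundant.

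Most genes of the immune branch of the family were low. Of 17 NLR genes outside the oocyte group, 5 were listed at 0 in every library (Nlrp1a, Nlrp1b, Nlrp10, Nlrc5 and Naip5) and 6 passed the filter. Nlrp3, the best known inflammasome sensor, was at 0.904 and 0.730 with DMSO and at 0.261, 0.0680 and 0.362 with PNMC. The most abundant were Nlrc4, which senses bacterial proteins together with the NAIP genes, at 9.74 and 9.90 with DMSO and at 9.64, 6.12 and 7.09 with PNMC, followed by Nod2 and Naip1. None of the 6 passed at an adjusted p under 0.05. At an unadjusted limma p there were 2 of the 6: Nod2 had a log2 change of 0.72 (limma adjusted p = 0.967) and Ciita of -1.09 (limma adjusted p = 0.967). Ciita was named after its values were seen, and Nlrp3 and its adaptor Pycard for their role, outside the rule for named genes.

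Genes linked to inflammasomes were low as well. Of the 9 genes in that list, Il18 and Aim2 were listed at 0 throughout and 4 were tested, with 0 called by limma, adjusted or unadjusted. Pycard, the adaptor ASC, was listed at 0 in 2 of the 3 PNMC libraries and at most 1.23 in any library, and Casp1, the inflammasome protease, at 0.915 and 0.933 with DMSO and at 1.48, 1.58 and 2.36 with PNMC. Casp1 was thus separated between the groups, at a level where its log2 change of 0.53 had an SE of 0.38 (limma adjusted p = 0.993). Dhx9, the helicase partner of NLRP9B, was the highest of the list at 10.8 and 6.58 with DMSO and at 9.09, 8.88 and 7.46 with PNMC, and Nek7 followed. The members of the oocyte group from Nlrp9c to Nlrp4b in the order of levels thus each exceeded every gene of that list in all 5 libraries. Nlrp4c did not.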

How the data were processed

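The submitters' processing notes list the build GRCm39 and, as tools, DESeq2 1.16.1, HTSeq, Trimmomatic and HISAT2 2.0.5. What each did is not stated, and neither are annotation and unit. In the table that the authors deposited there is a normalised signal for 32285 gene symbols in each of the 5 libraries. Values are fractional and sum to between 446010 and 454548 per library, and low values share no common step, so depth is unknown and no count test or counting interval is given. Columns were matched to samples by title. From these values, genes at 1 or more in at least 2 libraries were kept (12734, with 19551 removed), transformed to log2(value + 1), and compared with limma 3.58.1 in R 4.3.3 (3 PNMC against 2 control libraries, trended and robust variances, Benjamini-Hochberg over all genes tested, threshold 0.05). The procedure was tested on simulated data of the same 12734 genes, with 200 genes changed in each of 20 datasets: 88.3% of the 2-fold changes and 99.95% of the 4-fold changes were called. Those genes were drawn from the ones averaging 4 or more in log2, a level that Nlrp4c does not reach. The simulated noise was normal, independent between libraries and drawn from limma's own variances. Shared library effects and outlying libraries were thus absent, and the shares called may be higher than in real data.

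The 8 NLRP genes and the gene lists were chosen with earlier results of these data known. All 8 are named, as are the 3 NLRP genes of the maternal complex, up to 3 of the most abundant genes of each other list, and the 3 genes closest in pattern to Nlrp14 and to the mean of the 8. Genes named as listed at 0 throughout, and predicted genes that share windows, stand outside this rule, and other exceptions are given where they occur. Lengths and shared windows come from GENCODE M21 transcripts, promoters from RefSeq on GRCm38.p6, with Biopython 1.88 alignments. Because that build differs from the one in the notes, no coordinates were joined to the deposited values. Alternatives were 12 in number: median scaling, a pseudocount of 0.1, a minimum of 10 in place of 1, no filter, quantile normalisation, a replicate block, limma without trend and robustness, and each of the 5 libraries left out.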

Additional observations from a re-analysis of the deposited data

How the results depend on the processing

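No NLRP gene of the 8 passed at an adjusted limma p under 0.05 under any of the 12 alternatives, where the lowest adjusted p of a member ranged from 0.901 to 0.9999. The number of genes called in the whole table was 0 in 11 of the 12 alternatives and, with a single library left out, ranged from 0 to 1. Nlrp4b, Nlrp4e, Nlrp9a, Nlrp9b and Nlrp9c kept a positive change under all 12, with log2 values from 0.06 to 0.29, 0.04 to 0.22, 0.03 to 0.22, 0.18 to 0.30 and 0.07 to 0.19. Not all 12 could move these values. Dropping the filter, a minimum of 10, and limma without trend and robustness cannot alter a gene's log2 change. The replicate block gave the same log2 changes as leaving out PNMC library 3. Nlrp4a changed sign after median scaling (0.0771), and with 1 library left out it ranged from -0.0802 to 0.0961, positive without control library 2 (0.0621) and without PNMC library 2 (0.0961). Nlrp14 ranged from -0.42 to 0.0206 with 1 library left out and was positive without control library 2. Nlrp4c ranged from -0.31 to 0.16 and was positive without PNMC library 2. The cause of these changes was not tested. Where a control is left out, the remaining one is assumed to vary like the PNMC libraries. Median scaling moved the median change of all genes tested from -0.05 to 0.03.

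The titles give controls and PNMC libraries the same numbers, but nothing ties same-numbered libraries to a shared culture. Over the 12734 genes the difference between libraries 1 and 2 correlated at -0.0582 between the groups. With the replicate block, which leaves PNMC library 3 without a partner, 0 genes were called and Nlrp9b had a log2 change of 0.18, Nlrp14 of -0.13 and Nlrp9c of 0.12. The median change of the 8 genes was 0.05 there, against 0.12 without the block. A library alone in its block adds nothing to the comparison. Leaving out PNMC library 3 with no block gave the same median and the same log2 changes.

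Depth is unknown, so no limit from counting can be given for values near 0.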
